A study of Mus musculus with 2 samples.

Results

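The 10 genes Mrc1, Cd163, Marco, Msr1, Cd36, Stab1, Trem2, Gpnmb, Cd5l and Timd4 code for scavenger and lipid receptors of macrophages, with 1 secreted relative. They were found by symbol among the 32285 genes of the count files, and all 10 were present. Their unique molecular identifiers (UMIs, 1 per captured transcript) were summed over cells of each marker-gated class and written per 1000000 UMIs of that class (CPM).

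Single-cell RNA sequencing (10x Genomics, 3' end) was performed on ovarian tumors from the site of peritoneal abrasion in female C57BL/6 mice of 6 to 8 weeks. Both groups of mice carried the abrasion and an intraperitoneal injection of syngeneic ovarian cancer cells of the genotype p53-/-, myc, Hras, and then received daily intraperitoneal control IgG (7 mice per the labels) or the Activin A neutralizing antibody (8 mice) for 10 days. Tumors of a group were pooled into 1 library, so there were 2 libraries, no replicates and no test between groups. All intervals are 95% intervals for counting error only, since cells of a library share their mice and their preparation. Antibody and library cannot be told apart. The study's text gives another number of mice for its single-cell experiment and another length of treatment, and the labels were followed here.

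The control IgG library held 98174850 UMIs and 8770 cells after filtering, and the antibody library 74117462 UMIs and 6386 cells. The median cell held 5719 and 4660 UMIs. Cells were gated on marker genes other than the 10 receptors. C1q macrophages, defined by C1qa, C1qb and C1qc, numbered 1163 of 8770 cells (13.3%, exact interval 12.6 to 14.0) with control IgG and 305 of 6386 cells (4.78%, 4.27 to 5.33) with the antibody. They were split into 291 and 80 cells with Pf4 or Ccl8 transcripts and 872 and 225 cells low in both. Adgre1, which codes for F4/80 and was not used in the gates, stood at 232 CPM in the control and 281 CPM in the antibody library. The T cell gene Cd3e stood at 4.07 and 5.68 CPM and the fibroblast gene Col1a1 at 7.38 and 8.26 CPM. C1q cells past the cutoffs of their panels had been set aside, so these low values follow from the gates. The barcodes of 19 cells occurred in both libraries.

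Scavenger receptors bind modified lipoproteins, apoptotic cells, glycans and bacterial surfaces and carry them into the cell for degradation. Macrophages of different origin carry different sets of them. In the peritoneal cavity, large resident macrophages depend on the transcription factor Gata6 and are known for Timd4 and Cd5l, whereas macrophages that derive from monocytes in tumors and in fat are known for Trem2 and, when loaded with lipid, for Gpnmb.

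Among C1q macrophages, 5 of the 9 receptor genes with at least 50 UMIs stood at least 2-fold higher in the antibody library. These were Cd163, Marco, Cd36, Gpnmb and Cd5l, and 0 of the 9 stood at least 2-fold lower. Of all 9653 genes with that many UMIs in these cells, 2.17% were at least 2-fold higher and 1.32% at least 2-fold lower. The median log2 ratio of antibody over control was 1.14 over the 9 receptor genes and 0.02 over all genes. The receptor genes were chosen with earlier results of these data known, so the contrast with all genes is a description. Some of these genes shared their cells. In the antibody library 20 of the 22 macrophages with Marco also held Cd5l, and 10 of the 15 with Gpnmb also held Cd36. These pairs are thus not separate differences, and the share over all genes does not allow for that. The count depended in part on few macrophages. It fell from 5 to 2, Marco and Cd5l, when the 5 cells richest in each gene were left out of each library. The same 2 genes were left when each cell was reduced to 2000 UMIs. In both settings Cd163 had under 50 UMIs and was not compared. In the reduced cells Cd36 and Gpnmb stayed higher with the antibody, by log2 0.94 and 0.82.

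**Figure D1:**
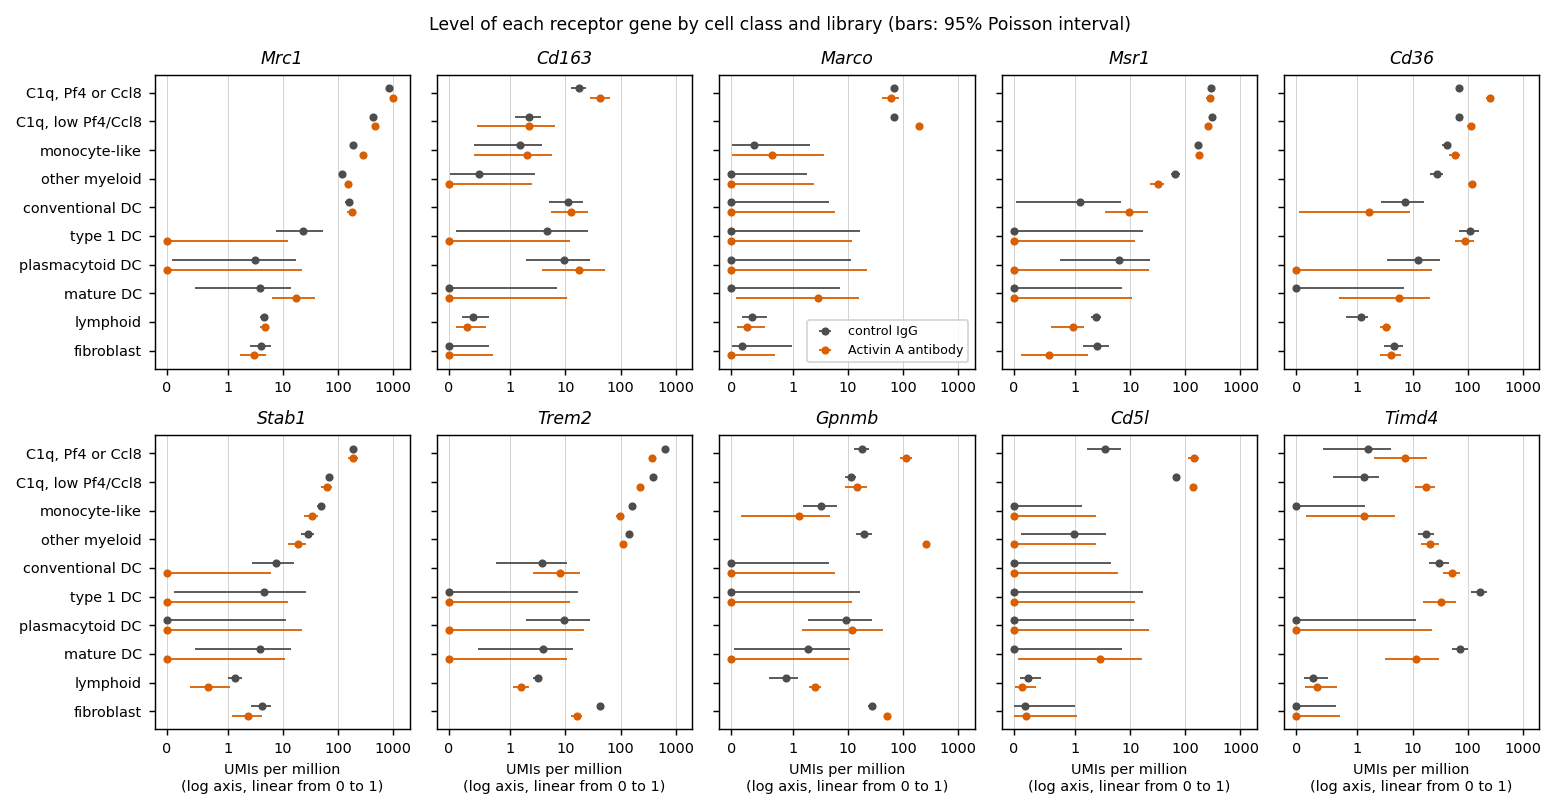
Level of the 10 receptor genes in CPM (horizontal axis, logarithmic above 1 and linear from 0 to 1) in 10 cell classes (vertical axis), with grey points for the control IgG library, orange points for the antibody library and bars for the 95% Poisson interval. Mrc1, Msr1, Stab1 and Trem2 stood above 60 CPM in both C1q macrophage classes of both libraries, and Marco and Cd5l stood below 3 CPM in each plotted class outside the C1q macrophages.

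Mrc1 codes for the mannose receptor, which takes up glycoproteins that end in mannose (GRCm38 chr2:14229392-14332057, plus strand). In C1q macrophages its level was 535 CPM (520.3 to 550.0) with control IgG and 605 CPM (571 to 641) with the antibody. On the log2 scale the antibody library was higher by 0.18 (0.08 to 0.27). After cells were thinned to 2000 UMIs, 534 of 1136 control cells (47.0%) and 139 of 294 antibody cells (47.3%) held an Mrc1 UMI. Without thinning the shares were 69.4% and 64.3%. Lymphoid cells, which should lack the gene, gave thinned shares of 0.767% and 0.378%. Mrc1 was therefore spread over about as large a share of macrophages in both libraries. Monocyte-like cells held 188 and 278 CPM, a log2 ratio of 0.56 (0.37 to 0.75), and conventional dendritic cells 156 and 176 CPM.

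Trem2 codes for a lipid-sensing receptor that signals through the adaptor Tyrobp (chr17:48346401-48354147, plus strand). It was the receptor gene with the largest decrease in C1q macrophages, at 453 CPM (439.6 to 467) with control IgG and 268 CPM (246 to 293) with the antibody. The log2 ratio was -0.76 (-0.89 to -0.62). Detection was lower as well, in 49.5% of 1136 control cells and 35.0% of 294 antibody cells at 2000 UMIs, and in 73.9% and 55.1% without thinning. The decrease was of like size in the macrophages with Pf4 or Ccl8 (638 and 376 CPM, log2 -0.76) and in those low in both (384 and 225 CPM, log2 -0.77). Monocyte-like cells held 162 and 95.8 CPM (log2 -0.76). Without 15 cells rich in the neutrophil marker S100a8, those of the antibody library held 82.9 CPM. Free RNA moved with it: barcodes under 100 UMIs held 65.3 CPM of Trem2 in the control library and 22.5 CPM in the antibody library. Fibroblasts held 42.6 and 15.9 CPM, the source of which was not tested. Lymphoid cells held 3.13 and 1.59 CPM. The expected share of free RNA in the macrophages was estimated from their haemoglobin UMIs, at 2.60% and 2.07%. It rests on 7 such UMIs in the control library. In the antibody library 1 cell with 725 of 728 was left out of the estimate. Subtracting so small a share kept the direction, which it could hardly have changed. The lowest and highest log2 ratios over all 11 processing alternatives were -1.05 and -0.70.

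Msr1 codes for a class A scavenger receptor for modified lipoproteins (chr8:39581685-39642673, minus strand). C1q macrophages held 301 CPM (290.2 to 313) with control IgG and 268 CPM (245 to 292) with the antibody. Their log2 ratio, antibody over control, was -0.17 (-0.31 to -0.03). Thinned shares were 39.0% and 36.7%. Monocyte-like cells held 169 and 177 CPM. In the other myeloid class Msr1 was at 66.3 CPM with control IgG and 31.5 CPM with the antibody. The log2 ratio there was -1.07 (-1.58 to -0.59), past 2-fold. Dendritic cells of the conventional, type 1, plasmacytoid and mature classes held between 0 and 9.61 CPM in either library.

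Stab1 codes for stabilin-1, an endocytic receptor of macrophages and of the endothelium of sinuses (chr14:31139013-31168641, minus strand). Its level in C1q macrophages was 99.0 CPM (92.7 to 106) and 97.6 CPM (84.1 to 113), which left a log2 difference of -0.02 (-0.25 to 0.21). Monocyte-like cells held 49.2 CPM with control IgG and 32.8 CPM with the antibody. Among endothelial cells, 1 control cell held 73 of 75 Stab1 UMIs and 1 antibody cell 39 of 49, and 2 of 13 and 2 of 8 endothelial cells held any.

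The other 6 genes lay in fewer macrophages. Marco codes for a class A scavenger receptor with a collagen-like stalk (chr1:120474538-120505024, minus strand). It was detected in 34 of 1163 control macrophages (2.92%) and 22 of 305 antibody macrophages (7.21%), and the 5 richest cells held 381 of 637 UMIs and 179 of 303 UMIs. The level was 68.2 CPM (63.0 to 73.7) and 156 CPM (139 to 175), so that Marco stood higher by 1.20 (1.00 to 1.40) on the log2 scale. Monocyte-like cells held 1 Marco UMI in each library, and the other myeloid cells 0 UMIs in both, which allows up to 1.48 and 1.97 CPM. Cells that passed the gates of more than 1 class were set aside as mixed, and 7 of 307 and 3 of 208 of them held 60 and 38 Marco UMIs. Free RNA held 16.4 and 16.5 CPM of Marco.

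Cd5l codes for a secreted protein of the scavenger receptor cysteine-rich family that binds lipids and the enzyme fatty acid synthase (chr3:87357881-87371073, plus strand). It was found in 34 control macrophages (2.92%) and 28 antibody macrophages (9.18%), at 49.7 CPM (45.2 to 54.4) and 141 CPM (125 to 159). The log2 ratio was 1.50 (1.28 to 1.72). The share of all cells of the library that were Cd5l-positive C1q macrophages was 0.388% (0.269 to 0.541) with control IgG and 0.438% (0.292 to 0.633) with the antibody. Mixed cells held 19 and 64 Cd5l UMIs in 2 and 6 cells, and free RNA held 10.2 and 24.3 CPM. Without thinning, these macrophages were thus about as frequent among all cells of both libraries, while C1q macrophages as a whole were 13.3% and 4.78%. The same was seen for Marco without thinning, with 0.388% and 0.345% of all cells. Cd5l-positive cells were deeper in the control library, with a median of 10308.5 against 6563.5 UMIs. Thinned to 2000 UMIs, 20 of 1136 control macrophages (1.76%) and 23 of 294 antibody macrophages (7.82%) held Cd5l. Marco was then held by 22 (1.94%) and 19 (6.46%). The thinned counts of Cd5l, 20 and 23, come from libraries of 8770 and 6386 cells. No share of all cells was taken after thinning, so the near-equal frequency is shown without thinning only.

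Timd4 codes for a receptor for phosphatidylserine on dying cells (chr11:46810800-46844332, plus strand). C1q macrophages held 13 UMIs in 10 cells with control IgG (1.39 CPM, 0.741 to 2.38) and 28 UMIs in 10 cells with the antibody (14.5 CPM, 9.60 to 20.9). With 41 UMIs in all it was under the minimum of 50 and was not counted above, and its log2 ratio was 3.38 (2.38 to 4.45). Other myeloid cells held 36 UMIs (17.8 CPM) with control IgG and 32 UMIs (21.0 CPM) with the antibody. Their log2 ratio was 0.24 (-0.50 to 0.97). Dendritic cells also held Timd4. Conventional dendritic cells had 25 UMIs (30.7 CPM) and 32 UMIs (51.3 CPM), mature dendritic cells 38 UMIs (73.4 CPM) and 4 UMIs (11.5 CPM), and type 1 dendritic cells 36 UMIs and 10 UMIs. In the control library 1 type 1 dendritic cell held 28 of those 36 UMIs and 1 mature dendritic cell held 20 of the 38.

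The proximal promoters of Marco, Cd5l and Timd4 are shown because the transcripts of these genes were found in few macrophages, in the antibody library largely the same ones, and that of Trem2 because its transcript was broadly detected and lower. They were read from RefSeq on build GRCm38.p6, which lists 9 of the 10 genes, and hold 250 bases before and 50 bases after the start site, 5' to 3' in the direction of the gene. Marco lies at chr1:120504975-120505274, Cd5l at chr3:87357631-87357930, Timd4 at chr11:46810549-46810848 and Trem2 at chr17:48346151-48346450. Capitals mark matches on either strand to GATAA, the core bound by GATA factors, to CACGTG and CATGTG, bound by factors of the MITF and TFE family, to GAGGAAG, a core for the factor coded by Spi1, and to TGCTGA, a core for MAF factors.
Marco: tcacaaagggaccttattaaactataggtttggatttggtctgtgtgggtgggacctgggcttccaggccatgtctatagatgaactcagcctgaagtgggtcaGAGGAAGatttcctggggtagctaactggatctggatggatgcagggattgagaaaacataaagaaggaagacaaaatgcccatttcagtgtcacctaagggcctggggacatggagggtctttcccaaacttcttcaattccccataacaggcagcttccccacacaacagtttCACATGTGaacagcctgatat
Cd5l: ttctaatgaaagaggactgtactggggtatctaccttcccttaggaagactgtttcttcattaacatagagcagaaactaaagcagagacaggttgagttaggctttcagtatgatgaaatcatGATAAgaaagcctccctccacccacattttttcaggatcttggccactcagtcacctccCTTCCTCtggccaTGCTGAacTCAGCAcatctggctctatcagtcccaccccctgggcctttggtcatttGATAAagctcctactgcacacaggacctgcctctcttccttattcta
Timd4: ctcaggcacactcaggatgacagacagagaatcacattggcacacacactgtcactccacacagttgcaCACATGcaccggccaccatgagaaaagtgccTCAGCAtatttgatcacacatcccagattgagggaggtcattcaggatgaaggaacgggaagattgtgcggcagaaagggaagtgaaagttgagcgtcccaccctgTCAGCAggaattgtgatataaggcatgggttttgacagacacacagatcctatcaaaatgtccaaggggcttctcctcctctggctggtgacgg
Trem2: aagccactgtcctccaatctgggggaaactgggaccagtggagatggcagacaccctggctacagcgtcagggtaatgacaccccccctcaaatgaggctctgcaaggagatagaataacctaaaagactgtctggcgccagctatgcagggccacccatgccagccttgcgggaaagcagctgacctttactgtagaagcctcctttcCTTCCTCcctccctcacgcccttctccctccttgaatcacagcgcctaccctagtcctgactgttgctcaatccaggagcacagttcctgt

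GATAA occurred in the Cd5l promoter at positions -126 and 3 from the start site, and in 25.4% of 32851 mouse promoters of the same length. Neither Marco, Timd4 nor Trem2 had GATAA in this window. Cd5l also had TGCTGA on both strands, at positions -54 and -46, and Timd4 had it at -150 and -44 on the opposite strand, against 19.5% of promoters with at least 1 match. GAGGAAG was present in Marco at -146, in Cd5l at -67 and in Trem2 at -41, and in 13.6% of all promoters. The CATGTG matches in Marco, at 29 and 31, overlap each other, and Timd4 had 1 at -181, against 14.2% of promoters. None of these 4 promoters held CACGTG, found in 7.15% of all. These are matches of letters and say nothing of binding.

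Marco, Cd5l and Timd4 transcripts shared some of their cells. In the antibody library, 20 of the 22 Marco-positive macrophages also held Cd5l, and 9 of the 10 Timd4-positive ones held Cd5l. In the control library, 10 of 34 Marco-positive and 3 of 10 Timd4-positive macrophages held Cd5l. Thinned to 2000 UMIs, the overlap of Marco and Cd5l was 14 of 19 Marco-positive cells with the antibody and 7 of 22 with control IgG. The Marco-positive cells of the antibody library differed in which broadly detected receptors they held. An Mrc1 UMI was found in 2 of 22 and a Trem2 UMI in 1 of 22, whereas 64.3% and 55.1% of all antibody C1q macrophages had one. Msr1 was found in 16 of 22, against 64.6% of all antibody C1q macrophages. In the control library 17 of 34 Marco-positive cells held Mrc1, 26 of 34 held Trem2 and 33 of 34 held Msr1.

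Macrophages with a Cd5l UMI also carried genes of large peritoneal macrophages. Gata6, their defining transcription factor, had 24 UMIs in the 28 Cd5l-positive cells of the antibody library (119 CPM) and 0 UMIs in the other 277 cells. In the control library Gata6 had 14 UMIs in 34 Cd5l-positive cells (37.6 CPM) and 14 UMIs in 1129 other cells (1.56 CPM). Prg4, which codes for the lubricating glycoprotein lubricin, stood at 691 CPM against 3.34 CPM in the control library and at 1889.9 CPM against 1.15 CPM in the antibody library. Alox15, a lipoxygenase, stood at 285 CPM against 0.780 CPM and at 1279.8 CPM against 0 UMIs, which allows up to 1.73 CPM. Serpinb2 and the adhesion gene Icam2 followed the same order, Icam2 with 159 CPM against 9.47 CPM and 273 CPM against 9.22 CPM. These cells were chosen by Cd5l, so the values are a description. Their median depth was 10308.5 UMIs in the control and 6563.5 UMIs in the antibody library, above the 7573 and 5755 UMIs of the macrophages without Cd5l.

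Among the other receptor genes, Mrc1 was lower in Cd5l-positive macrophages, at 202 CPM against 549 CPM with control IgG and at 174 CPM against 655 CPM with the antibody. Trem2 was lower too, at 229 CPM against 462 CPM and at 49.6 CPM against 294 CPM. Stab1 stood at 40.3 CPM against 101 CPM in the control library, and its 49.6 CPM and 103 CPM in the antibody library had overlapping intervals. Msr1 stood at 514 CPM against 292 CPM in the control library, while in the antibody library its 303 CPM and 264 CPM had overlapping intervals. Apoe, which codes for apolipoprotein E, stood at 3874 CPM against 5919 CPM and at 1305 CPM against 4507 CPM.

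**Figure D2:**
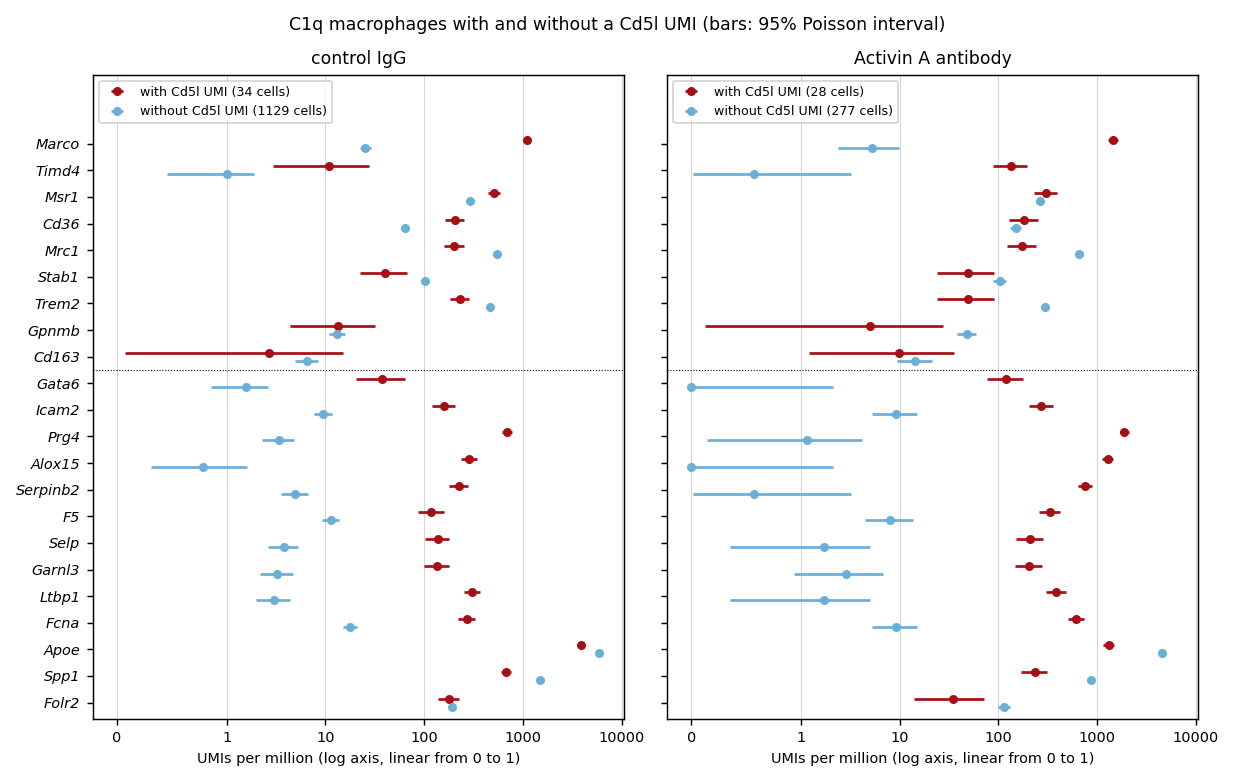
CPM (horizontal axis, logarithmic above 1 and linear from 0 to 1) of receptor genes above the dotted line and of resident peritoneal and other macrophage genes below it, in C1q macrophages with (red) and without (blue) a Cd5l UMI, with 95% Poisson intervals. In both libraries Marco, Timd4 and the genes from Gata6 to Fcna lie to the right in the Cd5l-positive cells (34 and 28 cells), and Mrc1, Trem2, Stab1 and Apoe lie to the left.

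Gpnmb codes for a transmembrane glycoprotein of lipid-laden and lysosome-rich macrophages (chr6:49036546-49070929, plus strand). It was detected in 38 control C1q macrophages (3.27%) and 15 antibody C1q macrophages (4.92%), at 13.2 CPM (10.9 to 15.7) and 43.4 CPM (34.6 to 53.7). This gave a log2 difference of 1.72 (1.30 to 2.13). In the antibody library 5 cells held 73 of its 84 UMIs, and without the 5 richest cells of each library the log2 ratio was -0.12. The excess in the antibody library thus rested on those 5 cells. Leaving out 5 cells takes a larger part of the 15 positive antibody cells than of the 38 positive control cells. Most Gpnmb UMIs of that library lay elsewhere, with 402 UMIs (264 CPM) in the other myeloid class, of which 330 were in 1 cell that also held 631 UMIs of Mmp12, the macrophage elastase. Fibroblasts held 27.4 CPM in the control and 52.4 CPM in the antibody library.

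C1q macrophages with a Gpnmb UMI, 38 in the control and 15 in the antibody library, were set beside the 1125 and 290 without one. Cd36 stood at 239 CPM against 61.1 CPM in the control library and at 1169 CPM against 73.0 CPM in the antibody library. Trem2 stood at 831 CPM against 435 CPM and at 683 CPM against 236 CPM. Of the 22 genes of a list of Trem2 signalling and lipid handling, 19 in the control and 16 in the antibody library stood higher with Gpnmb, with a counting interval that did not reach equality, and 0 and 3 stood lower. Of all genes with at least 20 UMIs in these cells, 5.28% stood higher and 8.52% lower by this measure in the control library, and 8.66% higher and 10.3% lower in the antibody library. Passing this measure depends on a gene's UMI count, and list genes held 76 (Fabp4) to 54544 (Apoe) UMIs in control C1q macrophages. The share over all genes, counted from 20 UMIs, is therefore not like for like. Fabp5, a fatty acid carrier, stood at 1423 CPM against 388 CPM and at 3007 CPM against 546 CPM, and Lgals3, which codes for galectin-3, at 3533 CPM against 1718 CPM and at 10847 CPM against 1415 CPM. Cells with Gpnmb had a median of 9424.5 and 10149 UMIs and those without 7537 and 5736 UMIs. Macrophages with Pf4 or Ccl8 were 17 of the 38 and 7 of the 15 cells with Gpnmb, and 274 of 1125 and 73 of 290 of those without. The part of depth and of this class mix in the differences was not tested. In the control library 6 of the 38 macrophages with Gpnmb also held Marco (15.8%), against 2.92% of all its C1q macrophages. With the antibody 0 of 15 did, against 7.21% of all, and 15 cells are too few to compare.

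Cd36 codes for a class B scavenger receptor that takes up oxidized lipoprotein and long-chain fatty acids (chr5:17781690-17888801, minus strand). C1q macrophages held 69.0 CPM (63.8 to 74.6) with control IgG and 153 CPM (136 to 172) with the antibody. The log2 difference was 1.15 (0.95 to 1.35). A UMI was found in 231 of 1163 cells (19.9%) and 53 of 305 cells (17.4%), and at 2000 UMIs per cell in 96 of 1136 (8.45%) and 34 of 294 (11.6%). In the antibody library 5 cells held 120 of 297 UMIs, against 104 of 645 UMIs in the control library. Among macrophages without a Gpnmb UMI, the Cd36 levels of the 2 libraries, given above, were less than 2-fold apart. With clusters in place of marker gates the log2 ratio was -0.71, so the direction depended on how the macrophages were defined. Type 1 dendritic cells held 24 UMIs (109.8 CPM) and 27 UMIs (88.6 CPM), and endothelial cells 43 UMIs in 7 of 13 cells (489.6 CPM) and 7 UMIs in 4 of 8 cells (65.0 CPM).

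Cd163 codes for the receptor of haemoglobin bound to haptoglobin (chr6:124304656-124330527, plus strand). It was rare, with 59 UMIs in 26 control C1q macrophages (6.31 CPM, 4.81 to 8.15) and 27 UMIs in 10 antibody C1q macrophages (13.9 CPM, 9.18 to 20.3). The log2 ratio was 1.14 (0.43 to 1.82). In the antibody library 22 of the 27 UMIs lay in 5 cells. With those and the 5 richest control cells left out, fewer than 50 UMIs remained and no ratio was counted. Conventional dendritic cells held 9 and 8 UMIs, at 11.0 and 12.8 CPM. The macrophage of the antibody library with 725 of its class's 728 haemoglobin UMIs held 0 UMIs of Cd163.

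**Figure D3:**
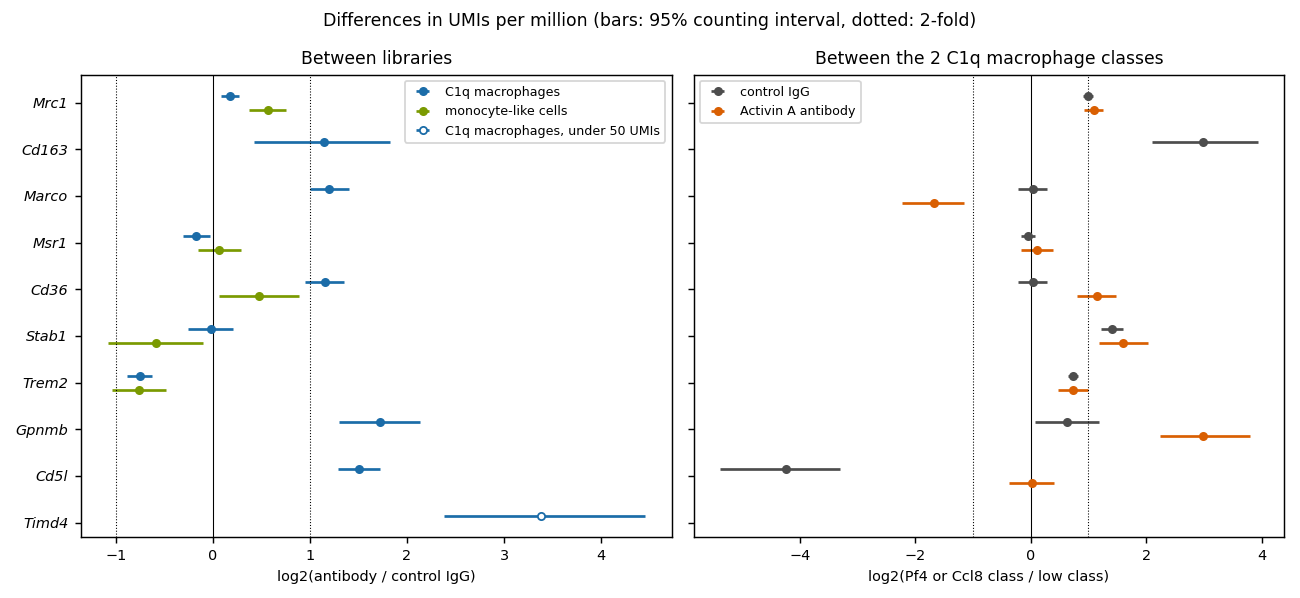
Left, log2 ratio of antibody over control IgG in C1q macrophages (blue) and monocyte-like cells (green) for each receptor gene with at least 50 UMIs, and for Timd4 (open symbol) below that minimum; right, log2 ratio of the C1q macrophages with Pf4 or Ccl8 over those low in both, in the control (grey) and antibody (orange) library. Bars are 95% counting intervals and dotted lines mark 2-fold. Trem2 lies left of 0 in both cell classes on the left, and Stab1 and Mrc1 lie near or beyond 2-fold in both libraries on the right.

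In monocyte-like cells, 5 of the 10 receptor genes reached 50 UMIs. Of these, 0 were at least 2-fold higher (all genes 1.45%) and 0 at least 2-fold lower (all genes 1.28%). Their median log2 ratio was 0.07 and that of all genes 0.01. Stab1 had a log2 ratio of -0.58 (-1.08 to -0.11) and Cd36 one of 0.48 (0.06 to 0.89). Marco, Cd5l, Timd4, Gpnmb and Cd163 had at most 9 UMIs in either library. The antibody library's monocyte-like cells included 15 cells rich in S100a8, a neutrophil marker of the gates. This gene was at 11.0 CPM in the monocyte-like cells of the control and 2864 CPM in those of the antibody library. Without those 15 cells Mrc1 stood at 327 CPM and Trem2 at 82.9 CPM in the antibody library, against 188 and 162 CPM in the control library, which had 0 such cells.

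The receptor genes also varied between the macrophages with Pf4 or Ccl8 and those low in both. Of 9 genes with at least 50 UMIs in the control library, Cd163 and Stab1 were at least 2-fold higher in the Pf4 or Ccl8 class (all genes 1.04%), and Cd5l was at least 2-fold lower (all genes 1.71%). Stab1 stood at 182 CPM and 68.2 CPM, a log2 ratio of 1.42 (1.23 to 1.60). Mrc1 stood at 840.4 CPM and 421 CPM, just inside 2-fold. In the antibody library 8 genes could be compared. Mrc1, Cd36, Stab1 and Gpnmb were at least 2-fold higher (all genes 1.96%) and Marco at least 2-fold lower (all genes 2.85%). Stab1 had a log2 ratio of 1.60 (1.18 to 2.03) there and Mrc1 one of 1.09 (0.92 to 1.26). Trem2 had log2 ratios of 0.73 and 0.74 in the 2 libraries and Msr1 of -0.04 and 0.11. Stab1, Mrc1 and Trem2 thus stood higher in the Pf4 or Ccl8 class of both libraries. So did Gpnmb, with log2 ratios of 0.63 (0.07 to 1.18) and 2.99 (2.25 to 3.79). Cd163 had 2.98 (2.10 to 3.93) and 4.31 (2.59 to 6.69), the latter from 24 and 3 UMIs, under the minimum of 50.

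For the rare genes this split rested on few cells. Cd5l had 9 UMIs in the Pf4 or Ccl8 class and 455 UMIs in the low class with control IgG, a log2 ratio of -4.23 (-5.37 to -3.30). With the antibody it had 79 and 194 UMIs, a log2 ratio of 0.02 (-0.38 to 0.40). This moved to 0.80 with all gate cutoffs halved, to -1.44 with them doubled and to -1.39 with thinned cells. Without the 5 richest cells of each class it was -3.18, but this left out 5 of the 8 positive cells of the Pf4 or Ccl8 class. Of 9 alternatives, 4 kept its sign. Marco had log2 ratios of 0.04 (-0.22 to 0.29) and -1.67 (-2.23 to -1.15), and Cd36 of 0.03 (-0.22 to 0.29) and 1.15 (0.81 to 1.49). Without the 5 richest cells the log2 ratio of Cd36 in the antibody library was 0.81, under 2-fold. Gpnmb had 64 and 20 UMIs in the 2 classes of the antibody library, with 7 positive cells in the Pf4 or Ccl8 class. In the control library's Pf4 or Ccl8 class 1 cell held 97 of the 176 Marco UMIs. Without the 5 richest cells of each gene the log2 ratio of Marco in the control library was -4.10. The cells of the Pf4 or Ccl8 class with Marco numbered 8 and 4 and those with Cd5l 5 and 8, so each of these ratios rests on few cells.

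Lists of related genes, also chosen with earlier results of these data known, were compared in the same C1q macrophages. Of 12 resident peritoneal macrophage genes, 10 were at least 2-fold higher in the antibody library (all genes 2.17%) and 0 lower (all genes 1.32%). The median log2 ratio was 1.45 over the list and 0.02 over all genes. Alox15 had 113 and 258 UMIs (12.1 and 133 CPM), a log2 ratio of 3.46, and Prg4 287 and 383 UMIs (30.7 and 198 CPM), a log2 ratio of 2.69. Fn1, which codes for fibronectin and was broadly expressed, had a log2 ratio of -0.16 and Cxcl13 one of -0.43. Macrophages with Cd5l held 257 of the 287 Prg4 UMIs in the control library and 381 of the 383 in the antibody library. They held 106 of the 113 Alox15 UMIs in the control library and all 258 in the antibody library.

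The counts of this paragraph stand beside 2.17% of all genes at least 2-fold higher and 1.32% lower. Of the 22 genes of Trem2 signalling and lipid handling, 2 were at least 2-fold higher, the lipoprotein lipase gene Lpl and the fatty acid carrier Fabp4, and 0 lower. The list's median log2 ratio was 0.21. Tyrobp, the adaptor of Trem2, had a log2 ratio of -0.07, while Spp1, which codes for osteopontin, had one of -0.84 and Apoe one of -0.48. Of the 8 other scavenger receptors with at least 50 UMIs, 0 passed 2-fold in either direction (median 0.02), and Cd68, Lrp1 and Cxcl16 had log2 ratios of -0.22, -0.04 and -0.36. Of the 12 efferocytosis genes 0 passed 2-fold (median -0.04). With so few of all genes past 2-fold, counts of 0 in short lists say little about them. Mertk, a receptor tyrosine kinase for the clearance of dying cells, had a log2 ratio of -0.47 (-0.68 to -0.26). Of 12 regulators, Klf4 and Gata6, which is also in the resident peritoneal list, were at least 2-fold higher and 0 lower. Of 10 resident tissue macrophage genes, Fcna and Ccl24 were at least 2-fold higher and 0 lower (median -0.05), and the folate receptor gene Folr2 had a log2 ratio of -0.84. Clec7a and Bai1 were not analysed here.

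The genes with the most similar pattern over 18 points, each a class of at least 50 cells in 1 library, were taken by Pearson correlation of log2(CPM + 10). The points share 2 libraries and differ in depth, so the values are a description. For Mrc1 they were Clec4a1, Ccl9 and Ccl6 (r of 0.977, 0.976 and 0.974). Trem2 was most like Abca1 (0.971), Tnfsf13 (0.9705) and Apoe (0.9698), Msr1 most like C5ar1 (0.9896), and Stab1 most like Ms4a7 (0.979). Marco was most like Fcna (0.971), a ficolin gene, and Cd5l like Alox15 (0.958). Gpnmb was most like Atp6v0d2 (0.827), a subunit of the lysosomal proton pump. The nearest gene to Cd36 was Cln8 (0.947), to Timd4 Etv3 (0.938) and to Cd163 Epm2a (0.805).

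**Figure D4:**
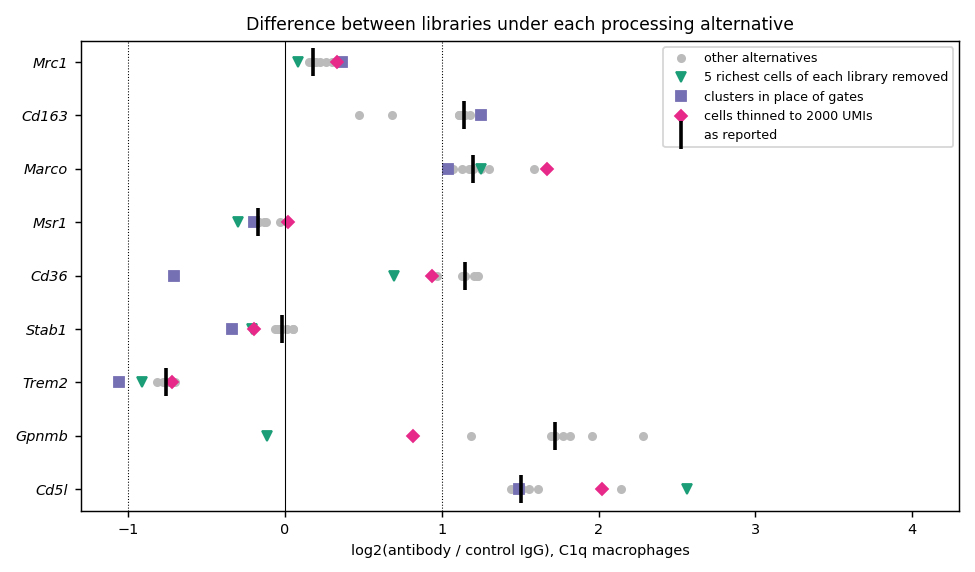
Log2 ratio of antibody over control IgG in C1q macrophages (horizontal axis) for the 9 receptor genes with at least 50 UMIs, as reported (black bars) and under each processing alternative (symbols), with dotted lines at 2-fold. Marco and Cd5l stay beyond 2-fold under every alternative, whereas Gpnmb without the 5 richest cells and Cd36 with clusters in place of gates lie left of 0.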

How the data were processed

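Gene by barcode tables of UMI counts were deposited by the authors, 1 per library, as raw counts with no normalization. The file headers name Cell Ranger 4 and the submitters' processing notes Cell Ranger 7.0.1 and build mm10. Here, a barcode was kept as a cell if it had 1000 to 8500 detected genes and 1000 to 100000 UMIs, with no more than 10% of them mitochondrial. Cells were gated on 17 marker panels per 10000 UMIs with at least 2 panel UMIs, C1q macrophages at 10 or more and the Pf4 or Ccl8 class at 2 or more. UMIs were summed per class and library as CPM, with exact 95% Poisson intervals, Clopper-Pearson intervals for shares and conditional binomial intervals for ratios, which cover counting error only. Genes with at least 50 UMIs over both sides of a ratio were compared, and 2-fold was the limit. With 1 library per group no test was run. Shares were compared after thinning cells to 2000 UMIs (seed 1). A limit for 0 counts is 3 UMIs of the class total. Ratios were tested on simulated Poisson counts of whole classes. These hold no differences between cells, so they cannot show how the ratios behave where few cells hold most UMIs. Positions are from GRCm38 with the GENCODE annotation. All 10 receptor genes were named, with the 3 nearest genes of each among genes with at least 200 UMIs (the text gives the first of each, and all 3 for Mrc1 and Trem2), and 6 related lists. The receptor genes and lists were chosen with earlier results of these data known. Scrublet (scanpy 1.11.5) called 0 cells in both libraries and so did not work, and no cell was removed as a doublet in the reported values. Python 3.11.15, numpy 2.4.6, scipy 1.17.1 and leidenalg 0.10.2 were used.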

Additional observations from a re-analysis of the deposited data

How the results depend on the processing

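The comparisons were repeated under 11 alternatives, of which clusters in place of gates and a minimum of 20 UMIs were run between libraries only. The count of 5 receptor genes at least 2-fold apart between libraries became 2 with cells thinned to 2000 UMIs and 2 without the 5 richest cells. Between the macrophage classes, the control count of 3 became 5 with all cutoffs doubled, and the antibody count of 5 became 3 without the 5 richest cells. The log2 ratio of Gpnmb went from 1.72 to -0.12 without the 5 richest cells, and that of Cd36 from 1.15 to -0.71 with clusters in place of gates. The cause was not tested beyond the cells removed. Marco (1.04 to 1.67) and Cd5l (1.44 to 2.57) stayed at least 2-fold higher under all 11 alternatives, Cd163 (0.48 to 1.25) under 7 of the 9 that gave a value. Trem2 (-1.05 to -0.70) was lower under all 11, and at least 2-fold lower only with clusters. Msr1 (-0.30 to 0.02) and Stab1 (-0.33 to 0.05) crossed 0 without passing 2-fold. The cells above the 95th percentile of Scrublet scores, 423 and 282, were removed in 1 alternative. No paired analysis was possible because there was 1 library per group, and for that reason no replicate could be left out. Cd163, Marco, Gpnmb, Cd5l and Timd4 rest on 10 to 38 macrophages a library, which limits their ratios more than the counting intervals show.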
